A study of Mus musculus with 12 samples.

Results

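The calcium, TRP and Piezo channel genes of osteocyte-like cells were described here on all arrays of the series. Members were taken by gene symbol, in a choice made with earlier results of these data known. The symbols were those of voltage-gated calcium channel subunits (Cacna, Cacnb and Cacng), the transient receptor potential channels of the TRPA, TRPC, TRPM and TRPV families, Piezo1 and Piezo2, Pkd1 and Pkd2, Orai1 to Orai3, and Stim1 and Stim2. The arrays measured 54 of them among 19938 genes with 1 symbol. These were 24 voltage-gated subunits (10 alpha-1, 4 alpha-2-delta, 3 beta and 7 gamma), 20 TRP channels (1 TRPA, 5 TRPC, 8 TRPM and 6 TRPV), 2 Piezo channels, 1 polycystin, 3 Orai channels and 2 Stim sensors. The remaining 2, Trpc4ap and Trpc5os, match by name and are not channels: Trpc4ap is a protein named for its association with Trpc4, and Trpc5os is a transcript named for the strand opposite Trpc5. Cacnb3, Cacng6, Pkd2 and Trpc2 had no probe set of their own symbol alone and were not analysed here.

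The RNA came from MLO-Y4, an osteocyte-like mouse line that the labels assign to long bone at 14 days, and all 4 groups were grown for 48 h at 37°C under 5% CO2. Of the groups, 3 stood in the bore of 1 superconducting magnet whose strong field also has a steep gradient, μ-g and 2-g at 12 T and 1-g at 16 T, and the control stood outside the magnet under normal gravity. Every group had 3 arrays, cells of several wells went into each plate, and the labels call the 3 biological replicates without saying whether they were separate cultures, so p-values measure only the spread between these samples, which may be technical. The groups μ-g (set 1), 2-g (set 2) and 1-g (set 3) were each compared with the control, and μ-g with 2-g (set 4), and 2 more comparisons set 1-g against μ-g and against 2-g. Sets 1 to 3 share the control arrays. The magnet and the place of culture cannot be told apart in sets 1 to 3, nor field strength and apparent gravity in the comparisons with 1-g. In set 4 the place in the bore and the direction of the magnetic force cannot be told apart from apparent gravity. Array medians ran from 7.04 to 7.12 on the log2 scale.

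Calcium enters a cell through channels that answer to different signals. Voltage-gated channels open on depolarisation and are built from a pore-forming alpha-1 subunit with alpha-2-delta, beta and, in some tissues, gamma subunits; Piezo channels open when the membrane is stretched; Orai channels open when Stim proteins sense that the endoplasmic reticulum has run low on calcium; and TRP channels answer to heat, osmotic swelling, lipids or ligands. Osteocytes are the mechanosensing cells of bone, and calcium signals are an early response of such cells to load and fluid flow, with Piezo1, Trpv4 and the polycystins among the proteins studied in that role.

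The promoters of 4 members are shown. Pkd1 and Orai2 are the members called with the replicate number as a block. Between 2-g and 1-g, 8 of 54 members had no overlap of arrays, against 19.5% of all genes. Of these 8, 6 were lower in 2-g, among them Orai2, Trpm7 and Trpv4. The others of the 6, Trpv2, Cacna1e and Trpc5os, are not shown. Each is the 300 bases around the gene start, mostly before it, in RefSeq, build GRCm38.p6, written 5′ to 3′ on the strand of the gene, and capitals mark CACGTG, in which ACGTG, the core of the hypoxia response element and of many E-boxes, reads on both strands.
Orai2, chr5:136170607-136170906, minus strand: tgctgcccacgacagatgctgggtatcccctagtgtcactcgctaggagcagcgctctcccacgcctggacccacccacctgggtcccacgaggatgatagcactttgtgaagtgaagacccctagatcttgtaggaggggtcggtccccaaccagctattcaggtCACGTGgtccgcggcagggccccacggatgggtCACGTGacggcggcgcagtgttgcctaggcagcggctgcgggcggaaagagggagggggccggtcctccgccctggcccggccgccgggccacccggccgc
Trpm7, chr2:126876212-126876511, minus strand: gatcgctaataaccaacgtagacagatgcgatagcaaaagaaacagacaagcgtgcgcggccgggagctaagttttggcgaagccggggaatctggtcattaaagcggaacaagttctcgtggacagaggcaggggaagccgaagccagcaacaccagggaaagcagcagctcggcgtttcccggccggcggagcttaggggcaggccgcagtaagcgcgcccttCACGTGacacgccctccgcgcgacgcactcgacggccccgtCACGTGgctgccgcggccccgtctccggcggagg
Trpv4, chr5:114658372-114658671, minus strand: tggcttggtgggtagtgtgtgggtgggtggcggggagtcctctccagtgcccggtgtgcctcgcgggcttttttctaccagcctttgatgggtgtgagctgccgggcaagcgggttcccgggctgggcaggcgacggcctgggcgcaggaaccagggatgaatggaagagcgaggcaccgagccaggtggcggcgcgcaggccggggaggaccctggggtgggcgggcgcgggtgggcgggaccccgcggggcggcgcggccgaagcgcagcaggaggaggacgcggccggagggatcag
Pkd1, chr17:24549700-24549999, plus strand: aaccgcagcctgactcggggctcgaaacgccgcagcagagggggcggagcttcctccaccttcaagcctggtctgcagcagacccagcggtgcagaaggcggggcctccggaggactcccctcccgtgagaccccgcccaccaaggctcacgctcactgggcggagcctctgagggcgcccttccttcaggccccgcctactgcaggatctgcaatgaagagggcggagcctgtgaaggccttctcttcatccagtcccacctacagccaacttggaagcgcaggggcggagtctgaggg
Orai2 and Trpm7 each held 4 matches to ACGTG, counted on both strands, which lie in 2 CACGTG places, and Trpv4 and Pkd1 held 0. The promoters of Trpv2, Cacna1e and Trpc5os, not shown, held 0 as well. Of the 54 members, 45 had a promoter in the table, and 10 of these held ACGTG on either strand of a promoter, or 22.2%, against 21.8% of 27025 genes in the table. A match is a description of letters and not a site in use, and 9 members (Cacna1a, Cacna1g, Cacna1h, Cacna2d4, Cacng1, Cacng4, Piezo2, Trpa1 and Trpm4) were not in the table.

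Signal above the array median throughout was found in all 5 Orai and Stim genes, in 5 of 24 voltage-gated subunits and in 4 of 20 TRP channels. Of the 54 members, 17 lay above the median of the array on all 12 arrays, 5 on some and 32 on none. Over all genes 52.4% lay above on all arrays and 43.1% on none. The median is a landmark on each array and no detection limit, and probes of different genes differ in brightness, so signals were set against the median and not against each other. Above it on all arrays were 1 of 2 Piezo genes, 3 of 3 Orai genes, 2 of 2 Stim genes, Pkd1, 2 of 6 TRPV, 2 of 8 TRPM, 0 of 5 TRPC and 0 of 1 TRPA channels, and Trpc4ap. The voltage-gated subunits gave 5 of 24: 1 of 10 alpha-1, 1 of 4 alpha-2-delta, 1 of 3 beta and 2 of 7 gamma subunits. The median SD within groups was 0.0876 over the members and 0.0854 over all genes, so the members varied between replicates about as all genes did.

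**Figure D1:**
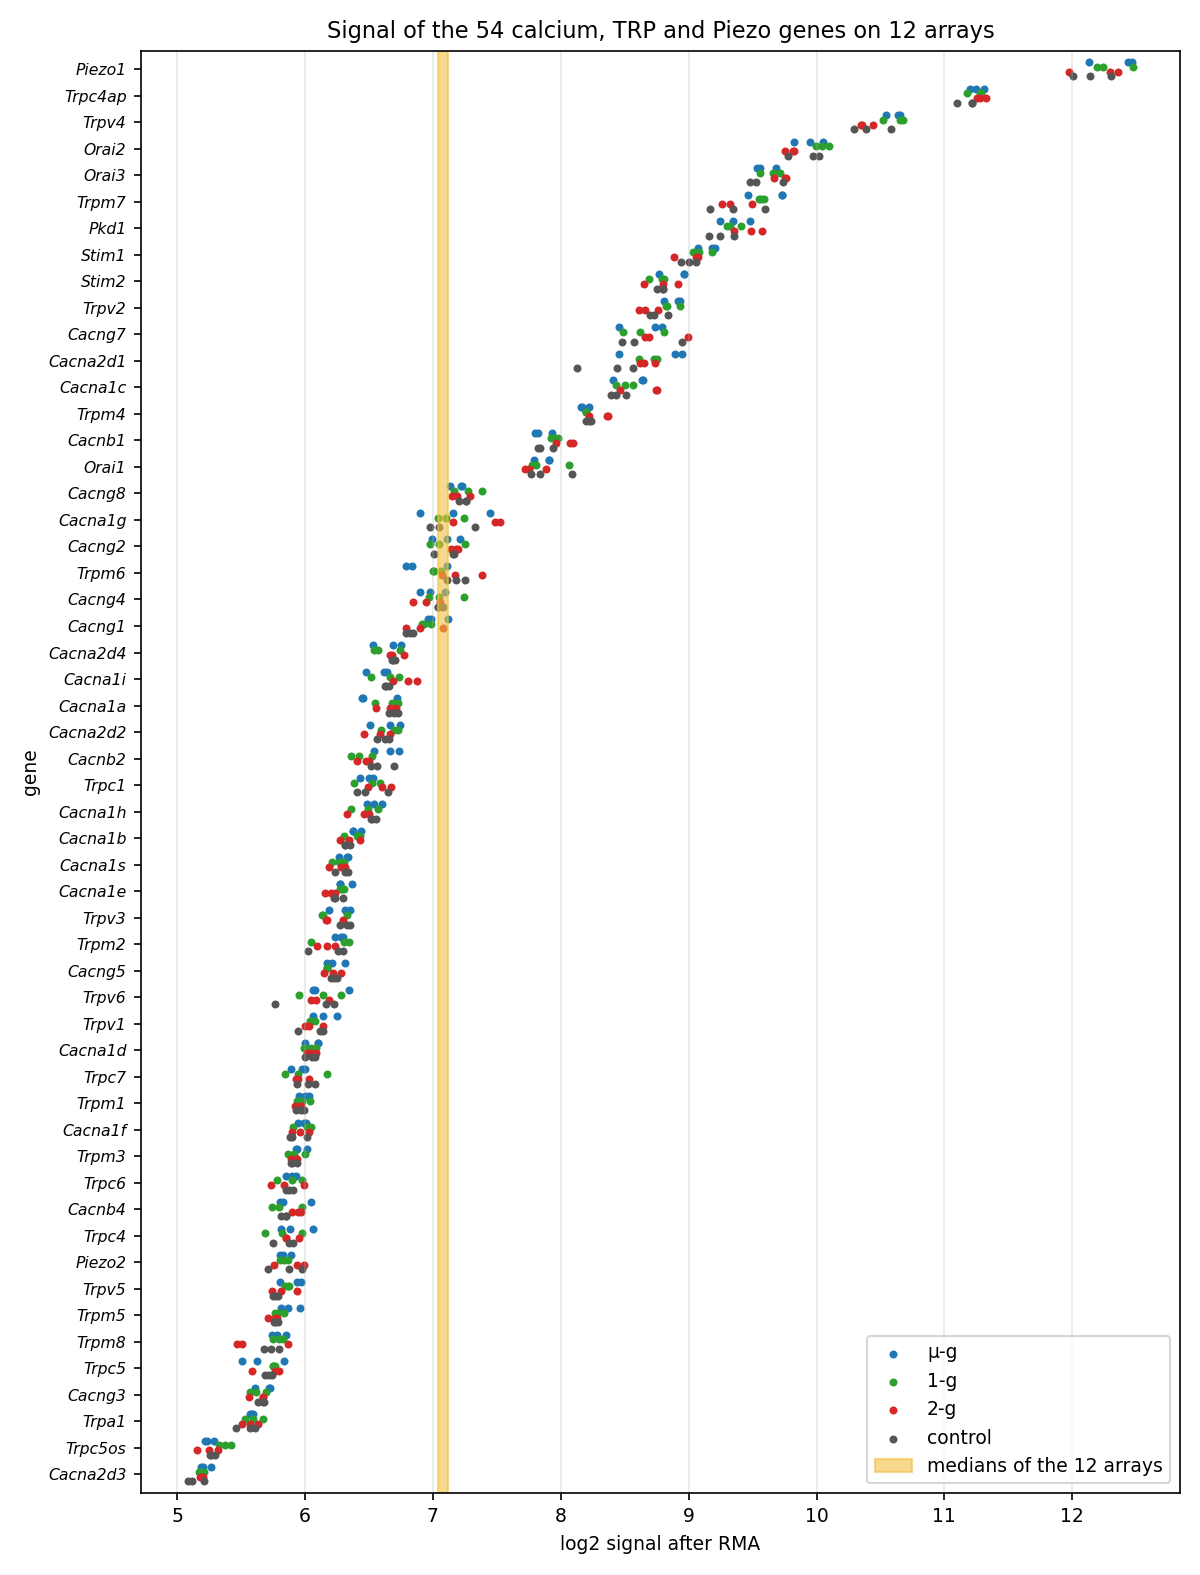
Log2 signal after RMA (x axis) of the 54 genes (rows, ordered by mean) on the 12 arrays, coloured by group, with the range of the 12 array medians, 7.04 to 7.12, as a band. The upper 17 genes lie right of the band on all arrays and 32 lie left of it, and the order of rows does not rank transcript amounts, because probes differ between genes.

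Piezo1, the stretch-gated cation channel, gave a mean log2 signal of 12.25 over the 12 arrays. Its signals were 12.43, 12.13 and 12.47 in μ-g, 12.47, 12.19 and 12.24 in 1-g, 12.36, 11.98 and 12.30 in 2-g, and 12.30, 12.005 and 12.14 in the control. Replicate 2 was the lowest of every group, and all 4 groups overlapped. Intervals at 95% for the log2 difference ran from −0.07 to 0.46 in set 1 (0.19, SE 0.12, adjusted p = 0.539 by limma) and from −0.13 to 0.40 in set 4 (0.13, SE 0.12, adjusted p = 0.647 by limma). Neither comparison passed. In pairs of the same number μ-g was above 2-g in 3 of 3, by 0.07, 0.15 and 0.17, and with the replicate number as a block the SE in set 4 was 0.06 and the adjusted p 0.214 by limma, so that the difference did not pass there either. In set 1, where the numbers do not pair the arrays by the rule used, μ-g was above the control in 3 of 3 pairs, and the blocked fit gave adjusted p = 0.0932. Its relative Piezo2, known from touch-sensing neurons, stayed below the median on all arrays, between 5.71 and 5.99.

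Trpv4, a channel gated by osmotic swelling and flow, gave 10.65, 10.64 and 10.54 in μ-g, 10.66, 10.52 and 10.67 in 1-g, 10.35, 10.35 and 10.44 in 2-g, and 10.39, 10.29 and 10.59 in the control. The arrays of μ-g and 1-g all lay above those of 2-g, and the control overlapped all 3 other groups. Trpv2, a calcium-permeable channel of the same family, gave 8.91, 8.81 and 8.93 in μ-g, 8.83, 8.93 and 8.82 in 1-g, 8.76, 8.61 and 8.66 in 2-g, and 8.70, 8.73 and 8.84 in the control. Here too 2-g lay below μ-g and 1-g without overlap. The other 4 TRPV channels, Trpv1, Trpv3, Trpv5 and Trpv6, lay below the median on all arrays.

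Pkd1 encodes polycystin-1, a large membrane protein that pairs with polycystin-2 at the primary cilium. It gave 9.48, 9.25 and 9.35 in μ-g, 9.41, 9.30 and 9.33 in 1-g, 9.57, 9.35 and 9.49 in 2-g, and 9.36, 9.25 and 9.16 in the control. The 2-g arrays overlapped the controls only between 9.35 and 9.36. In each pair of the same replicate number 2-g was above the control, by 0.22, 0.11 and 0.33.

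Among the store-operated genes, Stim1, the sensor of calcium in the endoplasmic reticulum, gave 9.20, 9.07 and 9.18 in μ-g, 9.08, 9.04 and 9.18 in 1-g, 9.05, 8.89 and 9.07 in 2-g, and 9.06, 8.94 and 9.01 in the control. Its μ-g arrays all lay above the controls. Stim2, a second sensor that answers to smaller losses of stored calcium, gave 8.96, 8.77 and 8.97 in μ-g, 8.69, 8.79 and 8.81 in 1-g, 8.80, 8.65 and 8.91 in 2-g, and 8.80, 8.75 and 8.80 in the control, and every pair of its groups overlapped.

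Orai2, one of the pore subunits, gave 10.05, 9.82 and 9.95 in μ-g, 10.09, 10.00 and 10.04 in 1-g, 9.81, 9.75 and 9.82 in 2-g, and 9.97, 9.78 and 10.02 in the control. These values are of its probe set with the higher mean, which may be that of a pseudogene, as given below. All 1-g arrays lay above all 2-g arrays, and 2-g minus 1-g was −0.28, −0.24 and −0.22 in the pairs of the same number. Orai3 gave 9.53, 9.69 and 9.56 in μ-g, 9.66, 9.56 and 9.71 in 1-g, 9.76, 9.66 and 9.76 in 2-g, and 9.53, 9.48 and 9.74 in the control. Orai1, the pore subunit of the classical store-operated current, ran from 7.72 to 8.09 over the 12 arrays. No pair of groups was free of overlap in either gene.

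In the TRPM family, Trpm7, which joins an ion channel for magnesium and calcium to a kinase, gave 9.73, 9.46 and 9.73 in μ-g, 9.57, 9.59 and 9.55 in 1-g, 9.50, 9.32 and 9.26 in 2-g, and 9.59, 9.35 and 9.16 in the control. The 1-g arrays lay within 0.04 of each other and above all of 2-g, whereas the controls spread over a wider range. Trpm4, a channel opened by calcium that passes monovalent cations, gave 8.16, 8.16 and 8.22 in μ-g, 8.19, 8.20 and 8.20 in 1-g, 8.22, 8.37 and 8.36 in 2-g, and 8.19, 8.24 and 8.22 in the control. Trpm6, the magnesium channel most like Trpm7, sat at the median, with 6.79, 7.11 and 6.84 in μ-g, 7.002, 7.01 and 7.06 in 1-g, 7.07, 7.18 and 7.38 in 2-g, and 7.18, 7.25 and 7.11 in the control. It was above the median on 6 of 12 arrays, and its 1-g arrays lay below those of 2-g and of the control. The other 5 TRPM channels were below the median on all arrays, as were the 5 TRPC channels, among them Trpc1 with a mean of 6.52, and Trpa1, with a mean of 5.57. Of the genes that only share a name with these channels, Trpc4ap ran from 11.10 to 11.33 and Trpc5os from 5.16 to 5.42.

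Among the voltage-gated subunits, Cacna1c, the pore of the L-type channel CaV1.2, gave 8.65, 8.41 and 8.64 in μ-g, 8.43, 8.50 and 8.56 in 1-g, 8.75, 8.46 and 8.76 in 2-g, and 8.51, 8.39 and 8.43 in the control. The T-type pore Cacna1g lay near the median, between 6.90 and 7.52, and above it on 9 of 12 arrays. The other 8 alpha-1 subunits, among them the L-type Cacna1s, Cacna1d and Cacna1f and the T-type Cacna1h and Cacna1i, lay below it on all arrays. Thus 1 alpha-1 subunit, Cacna1c, was above the median throughout.

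Cacna2d1, the auxiliary subunit that carries pore subunits to the cell surface, gave 8.95, 8.46 and 8.90 in μ-g, 8.75, 8.73 and 8.61 in 1-g, 8.73, 8.65 and 8.62 in 2-g, and 8.56, 8.44 and 8.12 in the control. The control arrays were the lowest, below all arrays of 1-g and 2-g, and μ-g replicate 2 fell among them. Cacnb1, a cytoplasmic beta subunit, gave 7.80, 7.93 and 7.82 in μ-g, 7.94, 7.98 and 7.92 in 1-g, 8.07, 7.96 and 8.09 in 2-g, and 7.84, 7.94 and 7.82 in the control, so that 2-g lay above μ-g and the control without overlap. The other 3 alpha-2-delta subunits and the other 2 beta subunits lay below the median on all arrays. The gamma subunits Cacng7 (8.45 to 8.99) and Cacng8 (7.13 to 7.38), which also act as partners of AMPA receptors, were above the median on all arrays. Of the remaining gamma subunits, Cacng2, Cacng4 and Cacng1 were above it on 8, 2 and 2 of 12 arrays, and Cacng3 and Cacng5 on 0.

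**Figure D2:**
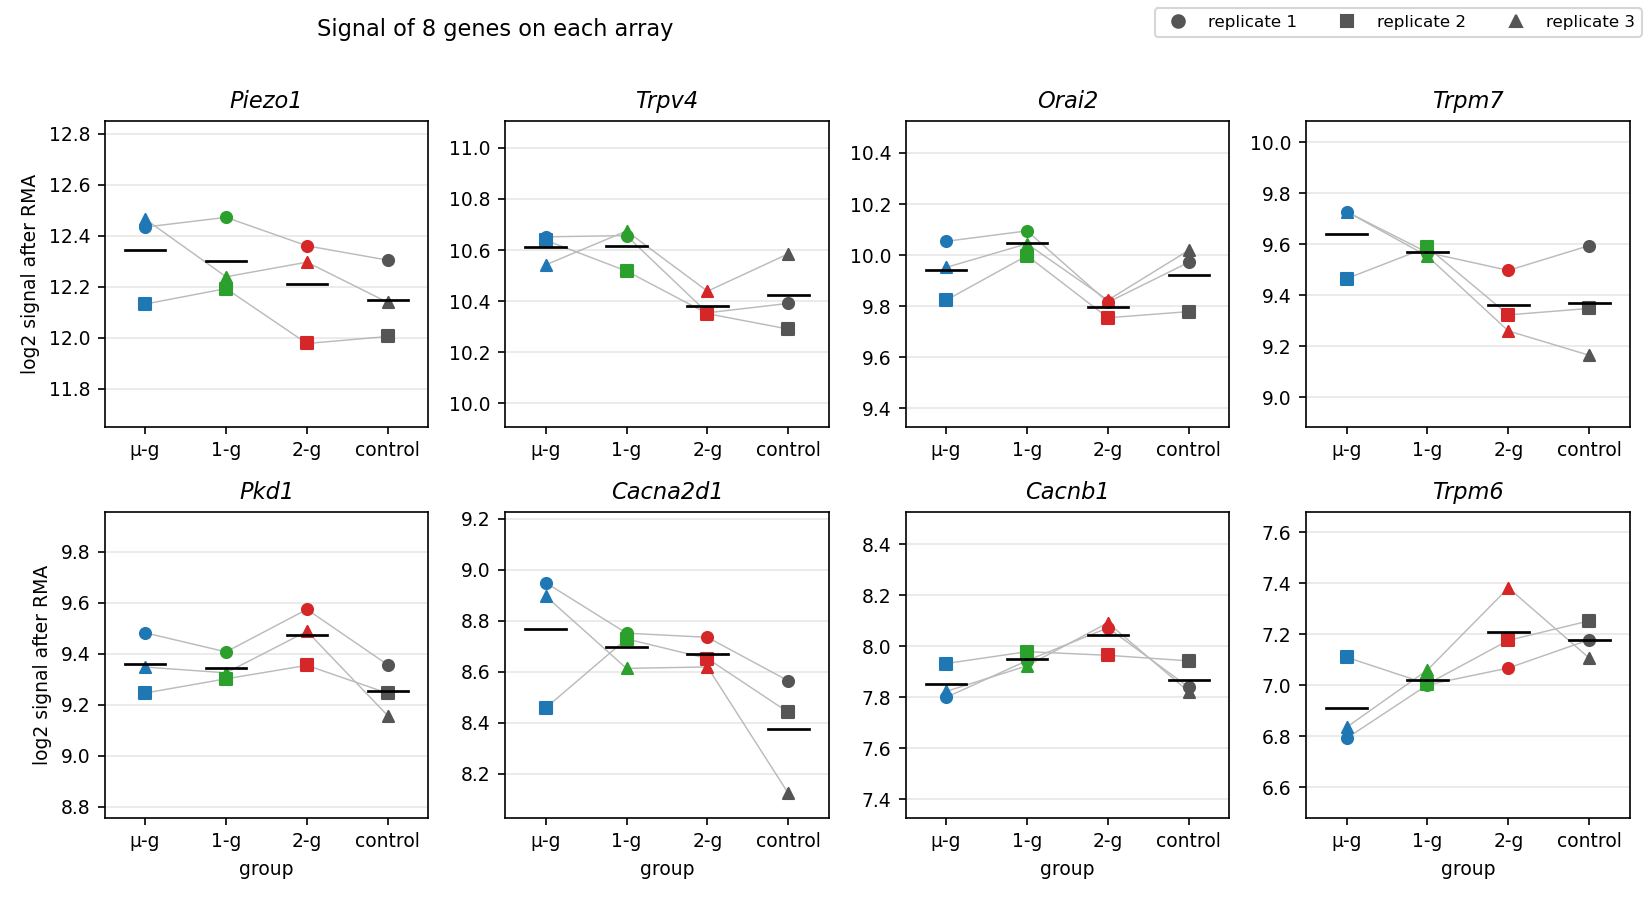
Log2 signal after RMA (y axis, each panel spanning the same width) of 8 genes in the 4 groups, with 1 point per array, the shape giving the replicate number, grey lines joining arrays of the same number and black bars the group means. Orai2 is lower in 2-g (9.75 to 9.82) than in 1-g (10.00 to 10.09) in every pair, and Pkd1 is higher in 2-g than in the control in every pair. The probe set shown for Orai2 may be that of a pseudogene.

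No member passed the test at adjusted p under 0.05, by limma with Benjamini-Hochberg adjustment over all genes, in any of the 6 comparisons: 0 of 54 rose and 0 of 54 fell. The share of all genes called was 0.823% in set 1, 3.11% in set 2, 0.321% in set 3, 2.88% in set 4, 0.00% in μ-g v.s. 1-g and 2.26% in 2-g v.s. 1-g, so few calls would fall on 54 genes at these rates. The F test of any difference among the 4 groups called 0 of 54, against 3.15% of all genes. A fold change over 1.5 with an unadjusted P under 0.05, the limits of the study's methods, was met by 0 of 54 in every comparison, against 0.206%, 0.466%, 0.140% and 0.707% of all genes in sets 1 to 4, 0.00% in μ-g v.s. 1-g and 0.652% in 2-g v.s. 1-g. In bulk RNA of this kind fewer cells with a transcript and less of it per cell cannot be told apart.

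The intervals bounded differences of signal gene by gene, with no allowance for the number of genes. They do not bound differences in transcript amount for low signals, which RMA can compress. Of the members, 32 lay above the array median on no array. The 95% interval of the difference lay within 1.5-fold in both directions for 53 of 54 members in set 1, 54 in set 2, 53 in set 3, and 54 in set 4 and in both comparisons with 1-g. The exception in set 1 and in set 3 was Cacna2d1, with upper ends of 0.67 and 0.60 on the log2 scale. The median log2 difference of the members was 0.03 in set 1, 0.01 in set 2, 0.03 in set 3, 0.04 in set 4, 0.02 in μ-g v.s. 1-g and −0.01 in 2-g v.s. 1-g, beside 0.02, −0.00, 0.02, 0.03, 0.01 and −0.02 over all genes.

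**Figure D3:**
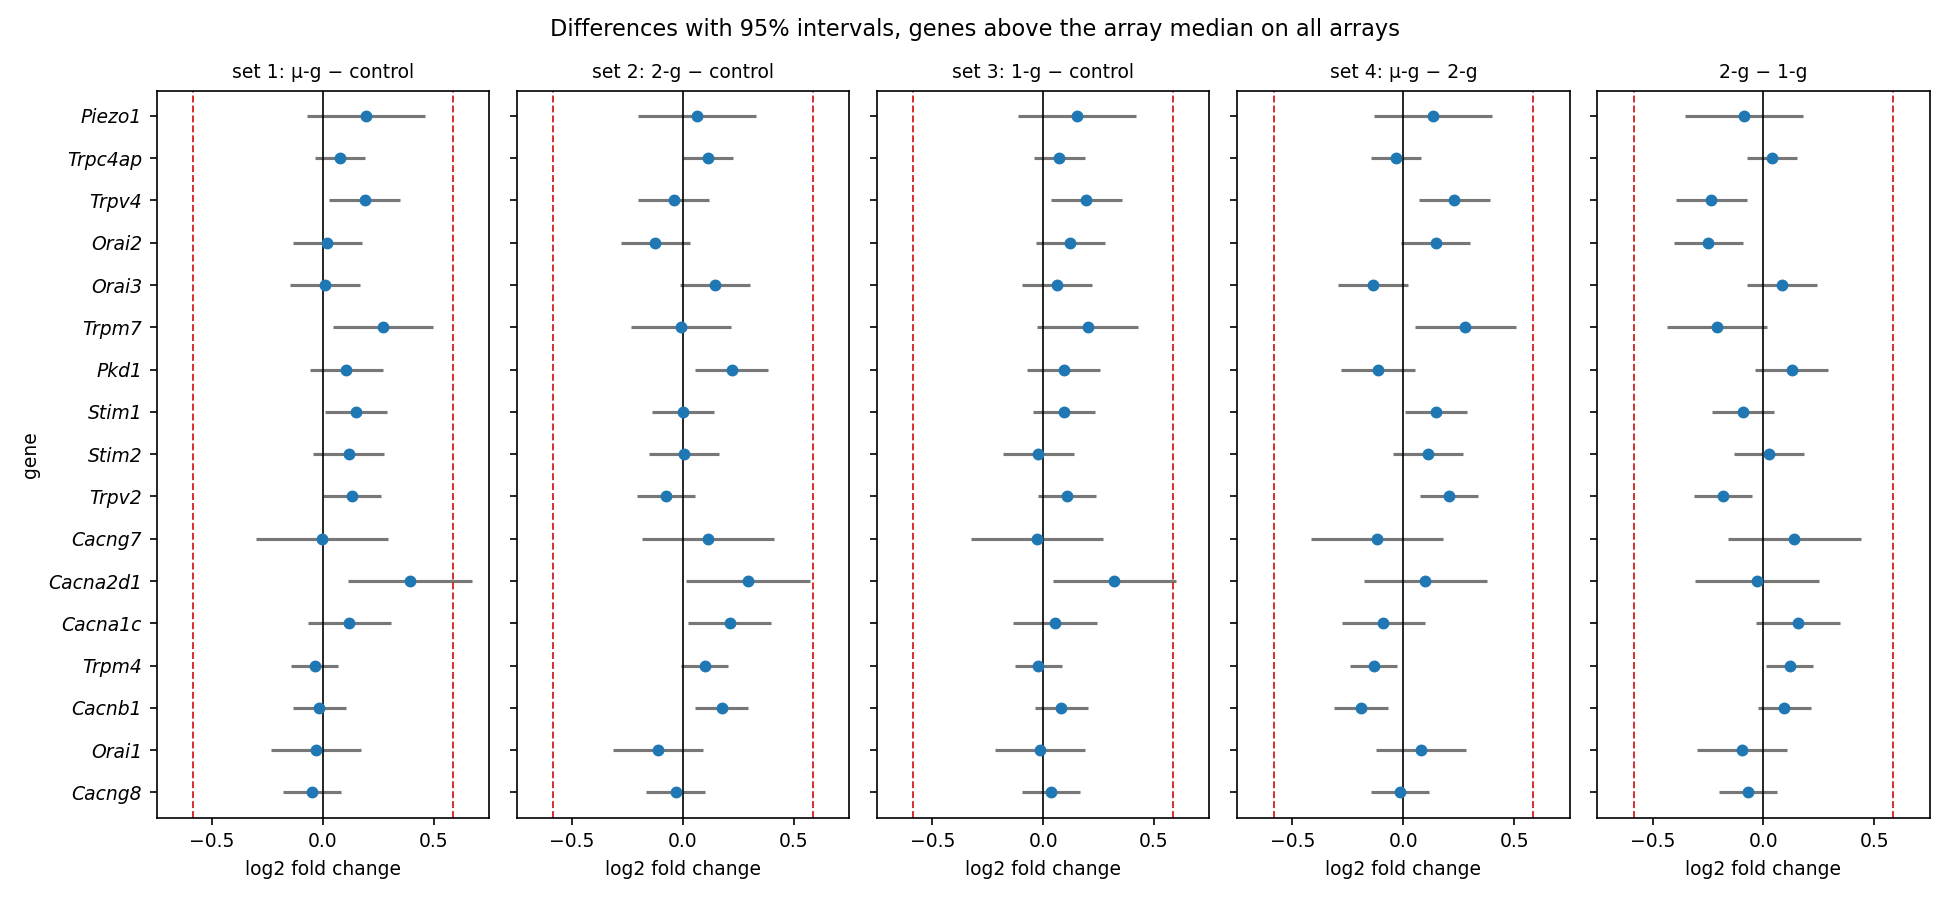
Log2 differences (x axis, points) with 95% intervals (grey bars) for the 17 genes above the array median on all arrays (rows) in 5 of the 6 comparisons, with dashed lines at a fold change of 1.5 in either direction. Only the intervals of Cacna2d1 in set 1 and set 3 cross a dashed line.

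Without adjustment, 8 of 54 members had P under 0.05 in set 1 (14.0% of all genes), 5 in set 2 (16.7%), 3 in set 3 (10.8%), 11 in set 4 (17.2%), 2 in μ-g v.s. 1-g (2.31%) and 5 in 2-g v.s. 1-g (15.3%). Members whose 3 arrays of one group all lay above or all below the 3 of the other numbered 5 in set 1 (17.2% of all genes), 7 in set 2 (21.2%), 7 in set 3 (15%), 8 in set 4 (21.1%), 2 in μ-g v.s. 1-g (5.63%) and 8 in 2-g v.s. 1-g (19.5%). In each comparison these counts were near or under the shares of all genes, and they are no result about the channel genes as a list.

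**Figure D4:**
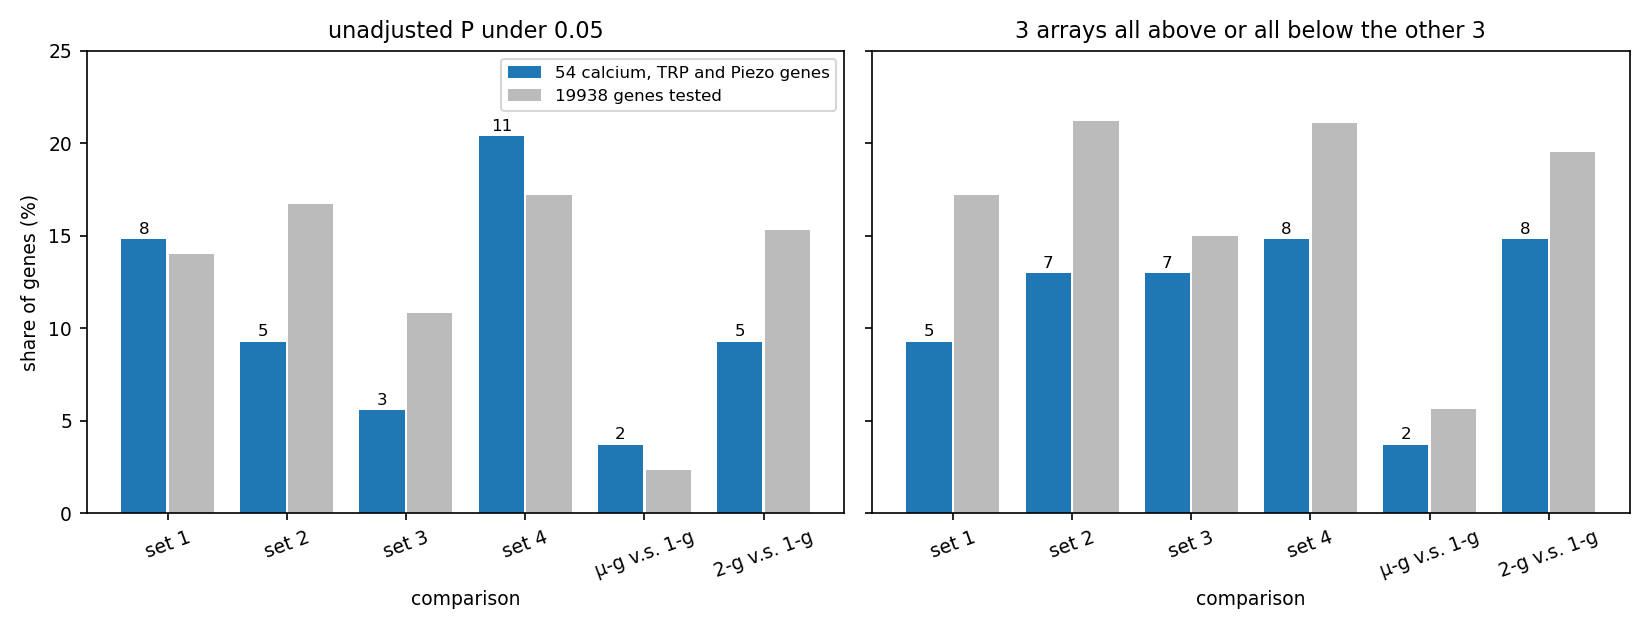
Share of genes in percent (y axis, from 0) with an unadjusted P under 0.05 (left) or without overlap between the 2 groups (right) in each comparison, for the 54 genes (blue, counts above the bars) and for all 19938 genes tested (grey). The blue bars lie below the grey ones in all comparisons on the right and in set 2, set 3 and 2-g v.s. 1-g on the left.

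With the control as reference, Cacna2d1 showed the widest differences. Its signal was 0.39 higher in set 1 (SE 0.13, adjusted p = 0.184), 0.29 in set 2 (SE 0.13, adjusted p = 0.270) and 0.32 in set 3 (SE 0.13, adjusted p = 0.381), with all p-values by limma. None passed, and all 3 rest on the same control arrays. The second probe set of the gene, with a mean of 8.30, was 0.31, 0.29 and 0.18 higher in sets 1 to 3. Without μ-g replicate 2, the array that fell among the controls, the gene passed in set 1 with a log2 difference of 0.55 (adjusted p = 0.0326), and so did Trpm6 with −0.37 (adjusted p = 0.0499). In that fit 392 of 19938 genes were called in set 1, against 164 with all arrays. Without control replicate 3, its lowest array, the differences of Cacna2d1 were smaller, at 0.27 in set 1, 0.17 in set 2 and 0.20 in set 3. Among the other members with a small unadjusted P in set 1, Trpm7 was 0.27 higher (SE 0.10, adjusted p = 0.258), with 0.17 without control replicate 3 and 0.38 without control replicate 1, and Stim1 0.15 higher (SE 0.06, adjusted p = 0.319), and Cacng1 (0.20), Trpv5 (0.14) and Trpm5 (0.11), which lay at or below the array median, did not pass either.

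In set 2 Pkd1 was the member whose call depended on the treatment of replicate numbers. Its mean was 9.47 in 2-g and 9.25 in the control, a difference of 0.22 (SE 0.08, adjusted p = 0.154 by limma). With the replicate number as a block, which the pairing of arrays in set 2 allows, the difference was 0.22 with an SE of 0.05 and passed at adjusted p = 0.0215. It was the 1 member of 54 called with the block in set 2, where 9.38% of all genes were. Cacnb1 had the smallest adjusted p of the unblocked fit in set 2, with 0.18 (SE 0.05, adjusted p = 0.115), and Cacna1c was 0.21 higher (SE 0.09, adjusted p = 0.233).

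In set 3 the smallest adjusted p was that of Trpv4, which was 0.19 higher in 1-g than in the control (SE 0.07, adjusted p = 0.352 by limma). It was 0.19 higher in set 1 as well (SE 0.07, adjusted p = 0.264). The block called 0 members in set 3, against 1.77% of all genes, and 0 in set 1, against 4.70%.

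Set 4, which holds field strength at 12 T and sets μ-g against 2-g, had the most members with an unadjusted P under 0.05. They numbered 11 of 54, and over all genes the share was also the largest here, at 17.2%. Trpv4 was 0.23 higher in μ-g (SE 0.07, adjusted p = 0.123), Trpv2 0.21 higher (SE 0.06, adjusted p = 0.0931) and Trpm7 0.28 higher (SE 0.10, adjusted p = 0.190). Stim1 was 0.15 higher (SE 0.06, adjusted p = 0.263). In the other direction Cacnb1 had a log2 difference of −0.19 (SE 0.05, adjusted p = 0.0911), Trpm6 had −0.30 (SE 0.09, adjusted p = 0.109), Trpm4 −0.13 (SE 0.05, adjusted p = 0.179) and Cacna1i −0.21 (SE 0.07, adjusted p = 0.129). None of these passed, with all p-values by limma, and the block called 0 members against 9.18% of all genes. Trpm6 passed without μ-g replicate 2, with −0.39 (adjusted p = 0.0281), in a fit that called 670 of 19938 genes in set 4.

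Trpm8, the cold and menthol receptor, lay below the array median on all arrays and turned on 1 array. In 2-g it gave 5.86, 5.51 and 5.47, and the 9 arrays of the other groups lay between 5.68 and 5.85. Without 2-g replicate 1 it passed in set 2 with −0.25 (adjusted p = 0.0473), in set 4 with 0.30 (adjusted p = 0.0223) and in 2-g v.s. 1-g with −0.30 (adjusted p = 0.0249), all by limma. With all arrays it did not pass.

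Between 2-g and 1-g, which differ in field strength and in apparent gravity, Orai2 had the smallest adjusted p. Its mean was 9.80 in 2-g and 10.05 in 1-g, a log2 difference of −0.25 (SE 0.07, adjusted p = 0.104 by limma). With the replicate number as a block the SE was 0.05 and the difference passed at adjusted p = 0.0149. It was the 1 member called with the block, where 7.57% of all genes were, and the 1 member called by the blocked F test (adjusted p = 0.0417), against 11.7% of all genes. The second probe set of Orai2, with a mean of 9.67, gave −0.25 as well (SE 0.06, unadjusted P = 0.00129 by limma). It also gave −0.16 in set 2 and 0.19 in set 4 (unadjusted P = 0.0206 and 0.00699 by limma). The probe set used gave −0.13 and 0.15 there (unadjusted P = 0.105 and 0.0649 by limma). RefSeq lists a pseudogene, Orai2-ps, so that signal of the gene and of this copy may not be told apart. The probe set used was taken for its higher mean. In the order of cluster numbers it falls between members on chromosome 15 (Cacng2) and chromosome 17 (Pkd1). The second falls between members on chromosome 5 (Trpv4) and chromosome 6 (Trpv6), and Orai2 itself lies on chromosome 5. The values given for Orai2, with its blocked calls, may thus be those of the pseudogene. Where each probe set lies was not tested.

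Trpv4 (−0.24, SE 0.07, adjusted p = 0.134) and Trpv2 (−0.18, SE 0.06, adjusted p = 0.155) were also lower in 2-g than in 1-g without overlap, and Trpm7 gave −0.21 (SE 0.10, adjusted p = 0.380), with p-values by limma. Trpm4 gave 0.12 (SE 0.05, adjusted p = 0.270). Cacna1g had the largest difference here, 0.26, and its groups overlapped. In μ-g v.s. 1-g the adjusted p of all 54 members was 1.00, the largest difference was 0.21 for Cacnb2, a beta subunit below the array median, and the block called 0 members and 0.00% of all genes.

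The genes around these channels were counted in 8 lists of 109 genes, of which 102 were measured and 52 lay above the array median on all arrays. At adjusted p under 0.05 by limma 1 of 102 rose and 0 fell in set 1 (0.823% of all genes were called). In set 2, 3 rose and 1 fell (3.11%), and in set 3, 0 were called (0.321%). In set 4, 1 rose (2.88%), in μ-g v.s. 1-g 0 were called (0.00%), and in 2-g v.s. 1-g 1 rose and 1 fell (2.26%). These counts were near or under the shares of all genes and are no result about the lists. With the block 3 rose and 0 fell in set 1 (4.70% of all genes were called), 5 and 4 in set 2 (9.38%), 2 and 0 in set 3 (1.77%), 10 and 4 in set 4 (9.18%), 0 and 0 in μ-g v.s. 1-g (0.00%), and 1 and 7 in 2-g v.s. 1-g (7.57%). Medians of the log2 differences were 0.04, −0.01, 0.02, 0.05, 0.01 and −0.01, close to those over all genes.

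Atp2c1, the calcium and manganese pump of the Golgi, was the 1 of 16 pumps and exchangers that rose in set 1, from 10.44 to 10.73 (0.29, SE 0.06, adjusted p = 0.0412). In set 2, Plcb3, a phospholipase C that releases the messenger for store emptying, rose by 0.30 (SE 0.06, adjusted p = 0.0197), Ppp3ca, a catalytic subunit of the calcium-dependent phosphatase calcineurin, by 0.25 (SE 0.06, adjusted p = 0.0307), and Stac2, an adaptor of L-type channels, by 0.29 (SE 0.06, adjusted p = 0.0255). Each was 1 call in its list: 1 of 10 phospholipases, 1 of 22 genes of calmodulin, its kinases, calcineurin and NFAT, and 1 of 6 channel regulators. Lrrc8d, a subunit of the volume-regulated anion channel and 1 of 18 other mechanically gated or volume-regulated channels, fell by 0.40 in set 2 (adjusted p = 0.0349) and was 0.38 higher in μ-g than in 2-g in set 4 (adjusted p = 0.0460). In 2-g v.s. 1-g, Ppp3ca rose by 0.25 (adjusted p = 0.0358) and Letm1, an ion exchanger of the inner mitochondrial membrane and 1 of 7 genes of mitochondrial calcium uptake, fell by 0.26 (adjusted p = 0.0418). The 11 genes of calcium release from the endoplasmic reticulum and the 12 polycystin-like, mucolipin and related channels had 0 calls in all comparisons without the block. All these values are by limma with adjustment over all genes. None of the 8 calls held in a fit of the 6 arrays of its comparison alone, where the adjusted p ran from 0.0560 (Lrrc8d in set 4) to 0.161 (Atp2c1), and leaving out 1 array ended the call for 4 (Plcb3) to 11 (Atp2c1 and Letm1) of the 12 arrays, with all directions kept.

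The osteocyte label was checked against 7 markers. Pdpn (mean 12.22), Gja1 (12.12) and Sost (7.30) were above the array median on all arrays, whereas Dmp1 (5.63), Phex (5.43), Mepe (5.11) and Fgf23 (6.88) were above it on none, and 0 of 7 passed the test in any comparison. Of 4 measured osteoblast genes Alpl and Col1a1 were above the median on all arrays, and of 7 macrophage genes Cd68 and Cd14 were, with Csf1r above it on 10 arrays and Ptprc, Adgre1, Itgam and Tyrobp on none. Of 4 endothelial, 4 neuronal and 5 muscle genes 0 were above it on all arrays, and the muscle gene Ckm was on 11. Col1a1 and Cd68 passed in at least 1 comparison (smallest adjusted p = 0.0177 and 0.0116 by limma), and their part in the channel values was not tested.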

How the data were processed

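Gene expression of MLO-Y4 cells was measured on 12 arrays (Affymetrix, Mouse Gene 1.0 ST), 3 for each of the 4 groups. The deposited values are log2 signals after RMA by the authors for 28856 transcript clusters (probe sets); the version of RMA is not given in the sources used, and its background correction and summarisation can compress low signals. No array was left out. Signals carry no read depth, and the number of arrays limits the precision.

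Symbols came from the platform table. Of the clusters 21789 carry 1 symbol, 1621 several and 5446 none or are not listed. For the 999 genes with several clusters, the one with the highest mean was taken. Group means were fitted over all clusters by limma (version 3.58.1, with lmFit and eBayes, under R 4.3.3), with 8 residual and 3.90 prior degrees of freedom, and p-values were adjusted over 19938 genes. An exact test of 3 against 3 arrays cannot give a p under 0.1. The script was tested on simulated data.

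Members and lists were chosen with earlier results of these data known. A gene is not reported here. Named were members called in any fit, the highest 15 and the highest of each family, all Piezo, Pkd, Orai and Stim genes, those with the largest difference in each comparison, and list genes that were called; other members named in sets 1 to 4 and in 2-g v.s. 1-g were taken after their values were seen.

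Replicate numbers 1 to 3 recur in all groups. Deviations from group means correlated by 0.342 on average between arrays of the same number and by −0.17 between others. The second value is no separate evidence, because deviations cancel within each group and this ties it to the first. By the rule that every pair exceeds 0.1, the numbers pair the arrays in all comparisons but set 1, where replicates 3 gave 0.0179. The pairing comes from the values alone.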

Additional observations from a re-analysis of the deposited data

How the results depend on the processing

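The count of members called at adjusted p under 0.05 was 0 in all 6 comparisons and by the F test. It stayed 0 after centring each array on its median, after quantile normalization, with genes above the median only, with a variance trend and a robust prior, with the mean of all clusters of a gene, with the 6 arrays of a comparison alone, with the methods' limits, and with variances moderated over genes with 1 symbol only, an alternative chosen after seeing the data. With the replicate number as a block it was 1 in set 2 (Pkd1, 0.22), 1 in 2-g v.s. 1-g (Orai2, −0.25) and 1 by the F test, and the block changed no other call of a member. Leaving out each array in turn gave 0 to 2 members in set 1, 0 to 1 in set 2, set 4, 2-g v.s. 1-g and the F test, and 0 in set 3 and μ-g v.s. 1-g. The 2 in set 1 came without μ-g replicate 2, where 392 of 19938 genes were called, against 164 with all arrays. Ranges over all genes are given below. The small difference of Piezo1 in set 2 (0.06) ran from −0.012 to 0.18 when 1 array was left out, with −0.012 without 2-g replicate 1 and −0.0098 without control replicate 2; the cause was not tested. The fits of the called list genes with 6 arrays and without single arrays were chosen after seeing the data.

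Members above the array median numbered 17, and 16 against the median of genes with 1 symbol, 20 by the mean against the median of all values, and 17 after quantile normalization.

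Counts over all genes moved by more than 1.5 times: from 164, 620, 64, 574, 0 and 451 in the 6 comparisons and 629 by the F test to 938, 1870, 352, 1831, 0, 1510 and 2324 with the block, which pairs no arrays in set 1 by the rule used; to 0, 151, 0, 301, 0 and 252 with 6 arrays; to 373, 1012, 133, 863, 0, 715 and 1032 with genes above the median only; to 41, 93, 28, 141, 0 and 130 with the methods' limits; and to 109 in set 1 with the trend. Leaving out 1 array gave 2 (without μ-g replicate 3) to 392 (without μ-g replicate 2) in set 1, 145 to 660 in set 2, 0 to 61 in set 3, 219 to 670 in set 4, 168 to 461 in 2-g v.s. 1-g and 206 to 791 by the F test. The cause of these moves was not tested.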

Other observations

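Several members are covered by more than 1 transcript cluster, and the clusters not used above gave these values. Piezo1 had further clusters with means of 11.63 and 11.27, with log2 differences of 0.09 and 0.13 in set 1. Piezo2 had further clusters with means of 5.81 and 5.66, below the array median on all arrays, and the last gave 0.23 in set 3 (SE 0.05, unadjusted P = 0.000775 by limma), while the cluster described above gave −0.02. Cacng2 had another cluster with a mean of 6.13, above the array median on 0 arrays, where the one used was above on 8. Trpc2 has a cluster shared with the symbols Xntrpc and Xndc1, with a mean of 7.53 and a range of 7.43 to 7.66 over the 12 arrays, above the array median on all 12. Which of the 3 transcripts gives this signal was not tested.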
